A study of Mus musculus with 6 samples.

Results

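The genes described here encode the nuclear subunits of the respiratory chain and ATP synthase in mouse bone marrow-derived macrophages, cells obtained by culturing bone marrow with the growth factor M-CSF. They were taken by name from the deposited table: names starting with Ndufa, Ndufb, Ndufc, Ndufs or Ndufv (complex I), Sdha to Sdhd (complex II), Uqcr (complex III), Cox4 to Cox8 (complex IV) or Atp5 (complex V), without Ndufaf names. Of 55401 genes in the table, 104 matched; 14 whose names mark them as pseudogenes by "-ps" were left out, which gave 90 members. The libraries were 3 from macrophages labelled Lamtor5 knockdown and 3 from WT macrophages, all M-CSF induced. The series' design text names the knockdown mouse HBXIPΔLysM, which places the loss of Lamtor5 (also called HBXIP, a subunit of the lysosomal Ragulator complex that helps to activate mTORC1) in cells that use the lysozyme gene Lyz2, that is myeloid cells. Nothing in the labels ties the 3 libraries of either group to distinct mice or cultures, and p-values therefore measure library-to-library spread, which may be technical.

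The respiratory chain passes electrons from NADH (through complex I) and succinate (through complex II) to coenzyme Q, on through complex III and cytochrome c to complex IV, which reduces oxygen. Complexes I, III and IV pump protons across the inner mitochondrial membrane, and complex V uses the gradient to make ATP. All complexes but II combine nuclear-encoded subunits with a few encoded by mitochondrial DNA, and macrophages are known to shift between respiration and glycolysis with their activation state.

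Of the 90 members, 84 had a mean of at least 1 FPKM (fragments per kilobase of transcript per M fragments) and are the genes compared; all 84 were tested. They divide into 39 genes of complex I, 4 of II, 8 of III, 16 of IV and 17 of V. The other 6 members were Cox4i2, Cox7b2, Cox8b, Ndufa4l2, Ndufa11b and a second identifier named Atp5o. Just above the limit were Cox6b2, Cox8c and Ndufs6b, with means over all libraries of 1.06, 1.10 and 1.59 FPKM; just under it were Cox7b2 and Ndufa4l2, with 0.16 and 0.13 FPKM. Cox6b2 and Cox8c averaged 0.673 and 0.621 FPKM in WT and 1.45 and 1.57 FPKM in the knockdown. They thus reached the limit only through the knockdown libraries, which favoured a rise in them. Among the 84, Ndufb4c, Ndufs6b and Cox6c2 are annotated only as processed pseudogenes, copies that can share reads with their parent genes.

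Members differed far more among themselves than between the groups. Mean levels ran from 1.06 FPKM for Cox6b2 to 226 FPKM for Cox6b1, a complex IV subunit on the intermembrane side, with a median of 36.8 FPKM. The members' FPKM summed to 4317, 4450 and 4183 in the knockdown libraries and to 4147, 3973 and 4177 in the WT libraries, and they held 0.77, 0.79 and 0.74% of the estimated counts in the knockdown and 0.76, 0.73 and 0.77% in WT. Their spread within a group was small, with a median coefficient of variation of 8.16% in the knockdown and 6.59% in WT, beside 9.78% and 10.5% over all tested genes with at least 1 FPKM.

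**Figure D1:**
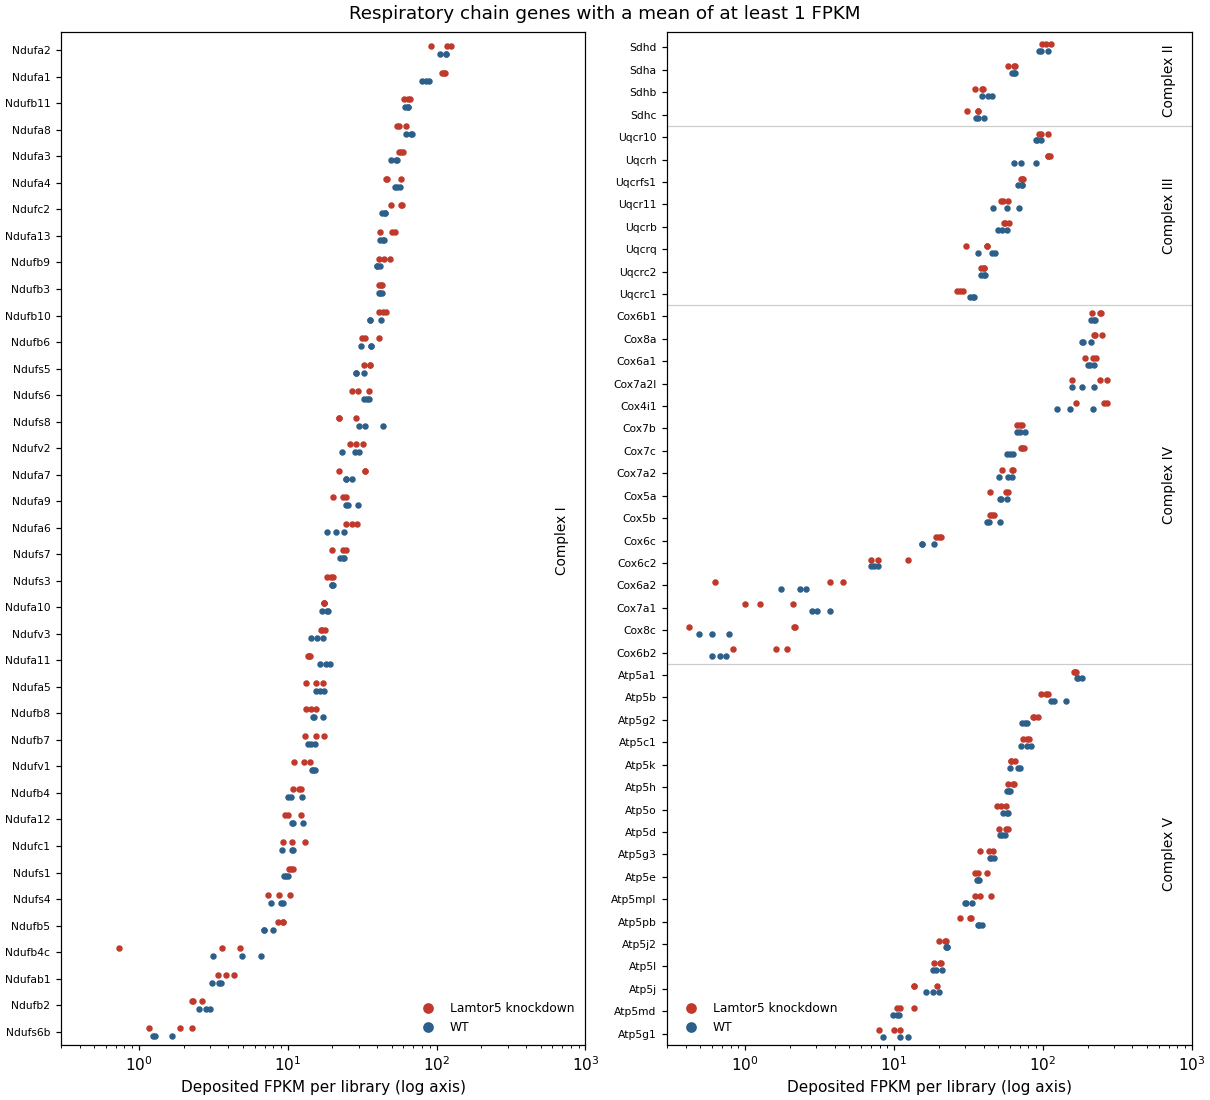
Deposited FPKM of 83 of the 84 members in each library on a log axis, by complex and ordered by mean level, with knockdown libraries in red above WT libraries in blue. The means run from 1.06 FPKM for Cox6b2 to 226 FPKM for Cox6b1, a far wider range than the distance between the groups for most genes.

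The libraries held 26.0 to 28.0 M read pairs, and the table's estimated counts summed to 75.8 to 83.2 M per library. Lamtor5 was at 25.6, 27.1 and 24.8 FPKM in the knockdown libraries and at 55.9, 54.5 and 56.2 FPKM in the WT libraries (log2 fold change -1.06, SE 0.078; edgeR adjusted p = 0.00963). An exact two-sided permutation test of these values gave p = 0.1, the smallest that 3 against 3 libraries allow. Knockdown replicate 3 stood apart on Lyz2, with 73.6 FPKM against 11356 and 10650 FPKM in the other knockdown libraries, while the WT libraries had 29379, 24743 and 22454 FPKM. Macrophage markers were present in all libraries, but 5 of 7 fell, among them Csf1r, and Cd68 rose; summed, the 7 were at 1836, 1746 and 1908 FPKM in the knockdown and 1991, 1844 and 1782 FPKM in WT. All 6 cycling cell markers fell and their summed FPKM was 19.6, 34.8 and 15.2 in the knockdown and 91.4, 162 and 202 in WT. Of the marker lists of other cells, 1 of 4 mast cell and basophil genes, 1 of 2 eosinophil genes and 1 of 3 tested erythroid genes rose (sums of 1.67 to 13.7 FPKM in the knockdown and 0.488 to 2.45 FPKM in WT over the 3 lists). Of 6 neutrophil genes 1 rose and 1 fell (sums of 68.5 to 118 FPKM in the knockdown and 89.1 to 137 FPKM in WT). None of 4 B cell genes passed, with sums of 1.10 to 5.28 FPKM in the knockdown and 5.50 to 7.92 FPKM in WT, and the T cell genes Cd3d, Cd3e and Cd3g summed to at most 0.0405 FPKM in any library. The part of these differences in the results below was not tested, and in such bulk libraries fewer cells of a type and less RNA per cell cannot be told apart.

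In the knockdown, 6 respiratory chain genes were higher and none was lower by edgeR, while DESeq2 and limma called some lower. With edgeR's quasi-likelihood test, adjusted over 18164 genes with a threshold of 0.05, 6 of 84 members passed (7.14%), beside 11.3% of all tested genes (4.87% higher and 6.46% lower) and 15.0% of those with at least 1 FPKM (6.10% higher and 8.86% lower). The 6 are Ndufa1, Ndufc2 and Ndufb5 of complex I, Uqcrh of complex III, Cox7c of complex IV and Atp5g2 of complex V. The share called higher was thus near the background, while 0 of 84 were called lower. At an unadjusted p under 0.05 there were 13 members higher and 4 lower (20.2%, beside 36.7% of all tested genes with at least 1 FPKM). The groups did not overlap in 14 members that were above WT (16.7%, background 17.1%) and in 9 that were below it (10.7%, background 26.9%). With DESeq2 6 members passed as higher, with Cox6b2 of complex IV among them and without Atp5g2 (adjusted p = 0.0522), and 2, Ndufs8 and Cox7a1, as lower (background 7.81% and 9.73%). With limma on log2(FPKM + 1) the split was 3 higher (Ndufa1, Cox7c, Uqcrh) and 3 lower (Ndufa11, Uqcrc1, Cox7a1; background 6.45% and 10.7%). Without knockdown replicate 3 none passed (background 4.15%), and the log2 fold changes of the 6 genes were 0.30 to 0.56 with adjusted p from 0.0645 to 0.124 in edgeR. None passed without knockdown replicate 1 (background 1.98%), knockdown replicate 2 (6.0%), WT replicate 2 (0.00%) or WT replicate 3 (3.29%) either. Without WT replicate 1, 5 passed (12.3%). They were Ndufa1, Cox7c, Atp5g2 and Uqcrh, and also Ndufa6 of complex I, which is not among the 6.

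Most changes were small. The median log2 fold change of the 84 members was 0.07, beside 0.02 for all tested genes and -0.02 for those with at least 1 FPKM, with 57 members above 0 and 27 below (48 above 0 with limma on log2(FPKM + 1)). For 69 members (82.1%, beside 47.9% of all tested genes with at least 1 FPKM) the 95% interval of the fold change lay within 1.5-fold of no change. For 77 it excluded a 2-fold change, beside 8598 of those 11486 tested genes. The members were also more abundant, with a median level of 36.8 FPKM against 6.32 FPKM for those genes. With at least 5 FPKM, 67 of 76 members and 3773 of 6608 tested genes had intervals within 1.5-fold. The 15 of the 84 members whose interval reached past 1.5-fold included Uqcrh and Ndufa1, which passed the test. They also included the rarely expressed isoforms Cox6a2, Cox6b2, Cox7a1 and Cox8c and the abundant Cox4i1 and Cox7a2l. Short transcripts had higher fold changes in this comparison. By the gene length implied by the table's counts and FPKM, the 2292 shortest of the tested genes with at least 1 FPKM had a median of 0.18 and the 2292 longest one of -0.10. The shortest class held 46 of the 84 members, whose median was 0.13. The part of transcript length in the members' values was not tested.

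**Figure D2:**
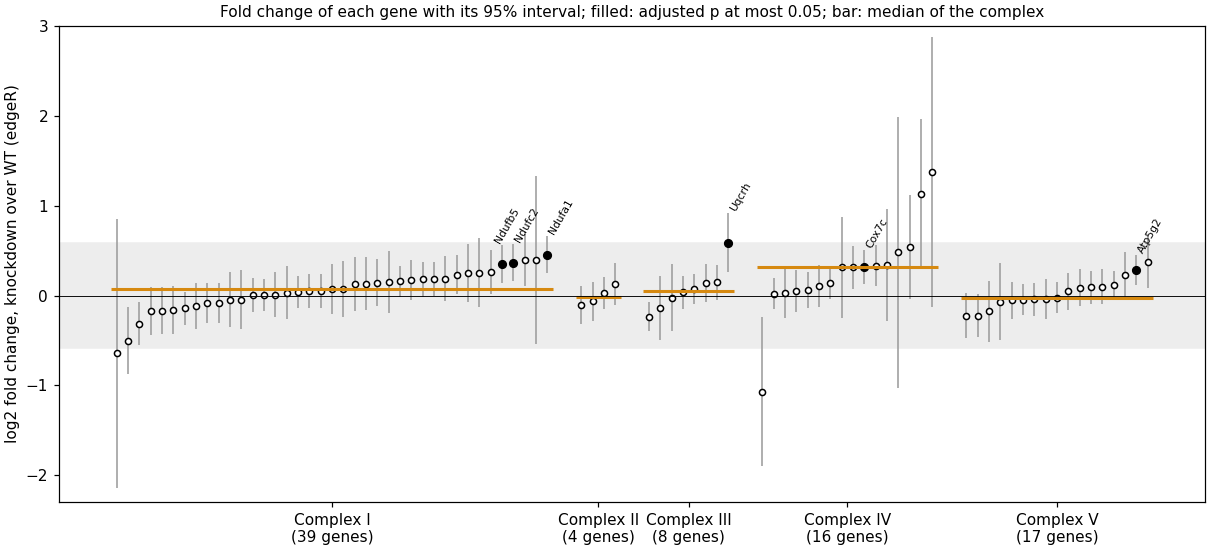
log2 fold change (knockdown over WT, edgeR) of each of the 84 members with its 95% interval, ordered within each complex; filled points have an adjusted p of at most 0.05, orange bars are complex medians and the grey band is 1.5-fold. The 6 filled points lie above 0, and the medians are 0.07, -0.02, 0.05, 0.31 and -0.02 for complexes I to V.

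Complex I, the NADH dehydrogenase, had 3 of 39 genes higher and none lower in edgeR, with a median log2 fold change of 0.07. DESeq2 called Ndufs8 lower (-0.51, adjusted p = 0.0361) and limma called Ndufa11 lower (-0.34, adjusted p = 0.0331). All 3 genes called by edgeR belong to its membrane arm, which holds the proton-pumping part. Ndufa1, a small accessory subunit needed for assembly of the complex (chrX:37187588-37191163, minus strand), was at 114, 113 and 108 FPKM in the knockdown and at 88.4, 80.2 and 84.6 FPKM in WT. The knockdown libraries all lay above the WT libraries, by a log2 fold change of 0.45 (SE 0.086, adjusted p = 0.0241). Ndufc2, another accessory subunit of that arm (chr7:97400003-97407802, plus strand), was at 49.7, 58.5 and 57.7 FPKM in the knockdown and at 44.9, 44.9 and 43.3 FPKM in WT. Its groups did not overlap either (0.37, SE 0.088, adjusted p = 0.0448). Ndufb5, also an accessory subunit there (chr3:32736990-32751566, plus strand), was at 9.27, 9.26 and 8.55 FPKM in the knockdown and at 6.93, 8.03 and 6.95 FPKM in WT. Every knockdown value was again the higher (0.35, SE 0.089, adjusted p = 0.0499), and the adjusted p stood at the threshold. Ndufb5 shares 158 bases with Mrpl47, a gene on the opposite strand.

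In the membrane arm 3 of 20 genes passed (15.0%, beside 15.0% of all tested genes with at least 1 FPKM), with a median of 0.15. In the peripheral arm, which carries electrons from NADH to coenzyme Q, 0 of 16 passed with a median of 0.02. At an unadjusted p under 0.05 edgeR had 1 higher and 1 lower, beside 36.7% of all tested genes with at least 1 FPKM. DESeq2 called Ndufs8 lower. The difference between the arms was not tested. The 7 core subunits, which complex I shares with its bacterial relatives, had a median of 0.01; this split was chosen after the values were seen. Ndufs8, an iron-sulfur subunit, was the core subunit farthest from 0, at 22.2, 29.0 and 22.1 FPKM in the knockdown and at 30.3, 33.2 and 43.7 FPKM in WT. All its knockdown values were the lower, but it missed the threshold (-0.50, SE 0.159, adjusted p = 0.0873). Ndufa2, an accessory subunit of the peripheral arm with the highest mean level in complex I (112 FPKM), was at 118, 125 and 91.4 FPKM in the knockdown and at 117, 105 and 116 FPKM in WT, and the groups overlapped (0.03, SE 0.124). The lowest fold change was that of the processed pseudogene Ndufb4c (-0.64, SE 0.630), at 4.76, 3.59 and 0.731 FPKM in the knockdown and at 3.13, 4.94 and 6.64 FPKM in WT. These overlapped, and knockdown replicate 3 was the lowest library. Ndufs6b, also a processed pseudogene, had a log2 fold change of 0.40 (SE 0.395). The remaining compared genes of complex I lay between -0.31 for Ndufa11 and 0.39 for Ndufa6, both accessory subunits, and none passed in edgeR with all 6 libraries. Ndufa6 passed as higher without WT replicate 1 (0.51, adjusted p = 0.0323 in edgeR).

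Complex II, succinate dehydrogenase, showed no gene past the threshold, and at an unadjusted p under 0.05 none was called by edgeR, while DESeq2 called none after adjustment. All 4 intervals lay within 1.5-fold of no change. Sdha, the flavoprotein that oxidises succinate, was at 65.4, 64.2 and 58.6 FPKM in the knockdown and at 63.8, 62.1 and 65.4 FPKM in WT (0.03, 95% interval -0.15 to 0.20). Sdhb, the iron-sulfur subunit, was at 39.1, 39.9 and 35.1 FPKM in the knockdown and at 42.5, 39.1 and 45.6 FPKM in WT (-0.11, interval -0.32 to 0.10). Groups overlapped in both. Of the membrane anchors, Sdhc was at 36.5, 36.6 and 31.2 FPKM in the knockdown and at 36.6, 35.7 and 40.4 FPKM in WT (-0.06, interval -0.28 to 0.15). Sdhd was at 114, 105 and 99.2 FPKM in the knockdown and at 109, 94.9 and 97.3 FPKM in WT (0.13, interval -0.11 to 0.37). These overlapped as well, and knockdown replicate 3 was the lowest knockdown library for all 4 genes.

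In complex III, which passes electrons from coenzyme Q to cytochrome c, 1 of 8 genes rose in edgeR. Uqcrh, the hinge protein beside cytochrome c1 (chr4:116066965-116075034, minus strand), was at 108, 108 and 112 FPKM in the knockdown and at 89.6, 71.4 and 64.2 FPKM in WT. The knockdown libraries lay close together above a wider WT group (0.59, SE 0.139, adjusted p = 0.0417), the largest increase among the 6. A processed pseudogene, Gm12854, lies within it on the opposite strand and was at 20.8, 21.1 and 22.4 FPKM in the knockdown and at 22.8, 20.1 and 26.0 FPKM in WT, so reads may be split between them if counting ignored strand. Uqcrc1, a core protein, was at 26.4, 28.9 and 27.7 FPKM in the knockdown and at 34.1, 32.6 and 34.5 FPKM in WT. Its groups did not overlap, but it missed the threshold of the main test (-0.24, SE 0.068, adjusted p = 0.0698). Uqcrfs1, the Rieske iron-sulfur protein, was at 71.4, 73.2 and 72.2 FPKM in the knockdown and at 72.5, 72.7 and 68.2 FPKM in WT, with overlapping groups (0.07, 95% interval -0.09 to 0.24). Uqcr10, a small accessory subunit, was at 96.8, 108 and 94.0 FPKM in the knockdown and at 97.0, 91.3 and 90.3 FPKM in WT (0.15, SE 0.082), with overlap. The remaining genes lay between -0.13 for Uqcrq and 0.14 for Uqcrb, and the complex's median was 0.05.

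Complex IV, cytochrome c oxidase, had the highest median of the 5 complexes at 0.31, with 15 of 16 genes above 0, yet 1 gene passed in edgeR (6.25%). The 15 include Cox6b2 and Cox8c, which reached 1 FPKM only through the knockdown libraries, so their direction was favoured by the limit. Cox7c, a small accessory subunit (chr13:86044816-86046904, minus strand), was at 74.3, 72.5 and 71.3 FPKM in the knockdown and at 63.0, 57.5 and 60.1 FPKM in WT. The groups did not overlap (0.32, SE 0.080, adjusted p = 0.0479). Among the 12 genes of the complex with at least 5 FPKM the median was 0.23 and all 12 were above 0 in edgeR. With limma on log2(FPKM + 1), 13 of the 16 and 10 of the 12 were above 0 and the median of the 16 was 0.18; without knockdown replicate 1 these values were 12, 10 and 0.17. Without knockdown replicate 2 the median of the 12 was 0.11, with 11 of 12 above 0. With Ndufa4, which is now placed in complex IV, the medians of complexes I and IV stayed at 0.07 and 0.31; Ndufa4 itself was at 45.5, 57.4 and 46.6 FPKM in the knockdown and at 53.9, 52.5 and 57.0 FPKM in WT (-0.08, SE 0.094).

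The summed FPKM of complex IV was 1467, 1481 and 1471 in the knockdown libraries and 1312, 1238 and 1334 in the WT libraries, a ratio of 1.138. These sums did not overlap. Of the most abundant genes of the complex, Cox4i1 and Cox7a2l varied widely between libraries. Cox4i1, the general isoform of the largest nuclear-encoded subunit, was at 168, 270 and 260 FPKM in the knockdown and at 152, 125 and 218 FPKM in WT (0.54, SE 0.244, adjusted p = 0.190). Its groups overlapped, since WT replicate 3 exceeded knockdown replicate 1. Cox7a2l, a relative of Cox7a2 that joins complexes III and IV into supercomplexes, was at 244, 158 and 271 FPKM in the knockdown and at 220, 185 and 158 FPKM in WT (0.31, SE 0.235, adjusted p = 0.424), also with overlap. Without both genes, a choice made after their values were seen, the complex IV sums were 1055, 1054 and 940 in the knockdown and 940, 928 and 958 in WT (ratio 1.079), and the groups overlapped. For the other complexes the ratio of mean sums was 1.03 for I, 0.99 for II, 1.067 for III and 0.972 for V.

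**Figure D3:**
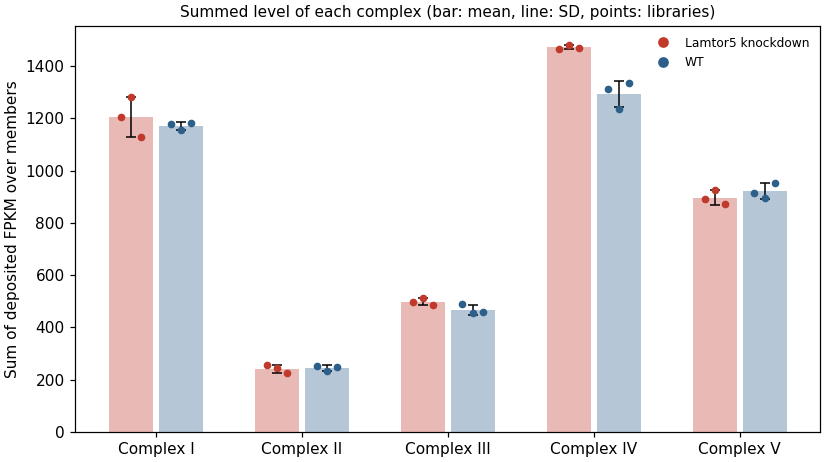
Summed deposited FPKM of the members of each complex, knockdown in red left of WT in blue; bars are means of 3 libraries, lines are SD and points are libraries. Complex IV has 1467 to 1481 in the knockdown and 1238 to 1334 in WT, while the groups overlap for complexes I, II, III and V.

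Several complex IV subunits exist as alternative isoforms, and the general isoforms dominated. Cox6b1 was at 241, 245 and 214 FPKM in the knockdown and at 211, 221 and 225 FPKM in WT (0.14, SE 0.073), and Cox6a1 at 218, 229 and 192 FPKM in the knockdown and at 208, 203 and 222 FPKM in WT (0.06, SE 0.083). Both overlapped between the groups. Cox8a was at 251, 225 and 221 FPKM in the knockdown and at 210, 184 and 186 FPKM in WT; the groups did not overlap, but it missed the threshold (0.31, SE 0.102, adjusted p = 0.0939). Cox7a2 (0.11, SE 0.10) and Cox7b (0.02, SE 0.073) overlapped between the groups. Among the other genes of the complex, Cox5a, Cox5b, Cox6c and the pseudogene Cox6c2 had log2 fold changes of 0.03, 0.05, 0.33 and 0.34, and of these 4 Cox6c alone did not overlap (adjusted p = 0.0683 in edgeR).

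The tissue-restricted isoforms were rare in both groups. Cox7a1, the heart and muscle isoform of Cox7a2, was at 1.25, 0.996 and 2.11 FPKM in the knockdown and at 3.06, 2.79 and 3.73 FPKM in WT. It made up 1.98, 1.55 and 3.81% of the FPKM of the pair in the knockdown and 5.67, 4.54 and 5.70% in WT, and the groups did not overlap on either scale. Its log2 fold change was -1.07 (SE 0.348, adjusted p = 0.0936 in edgeR), and it passed as lower in DESeq2 (adjusted p = 0.0429) and limma (0.0367). Cox6b2, known from testis, was at 0.826, 1.91 and 1.62 FPKM in the knockdown and at 0.674, 0.742 and 0.603 FPKM in WT, without overlap (1.13, SE 0.350, adjusted p = 0.0840 in edgeR). It passed as higher in DESeq2 (1.12, adjusted p = 0.0413) but not in limma (0.52, adjusted p = 0.0980). Cox8c, also known from testis, was at 0.419, 2.15 and 2.14 FPKM in the knockdown and at 0.488, 0.773 and 0.603 FPKM in WT, and knockdown replicate 1 was the lowest library of all (1.38, SE 0.632, adjusted p = 0.197). Cox6a2, the muscle isoform of Cox6a1, was at 4.58, 3.73 and 0.630 FPKM in the knockdown and at 1.75, 2.55 and 2.33 FPKM in WT, with knockdown replicate 3 the lowest of the 6 (0.48, SE 0.633). Of the members under 1 FPKM, Cox4i2 had counts of 0, 6 and 8 in the knockdown (mean 0.0606 FPKM) and of 0 in every WT library. Cox8b was at 0 counts in every library. Cox7b2 and Ndufa4l2 averaged 0.18 and 0.18 FPKM in the knockdown and 0.14 and 0.086 FPKM in WT.

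**Figure D4:**
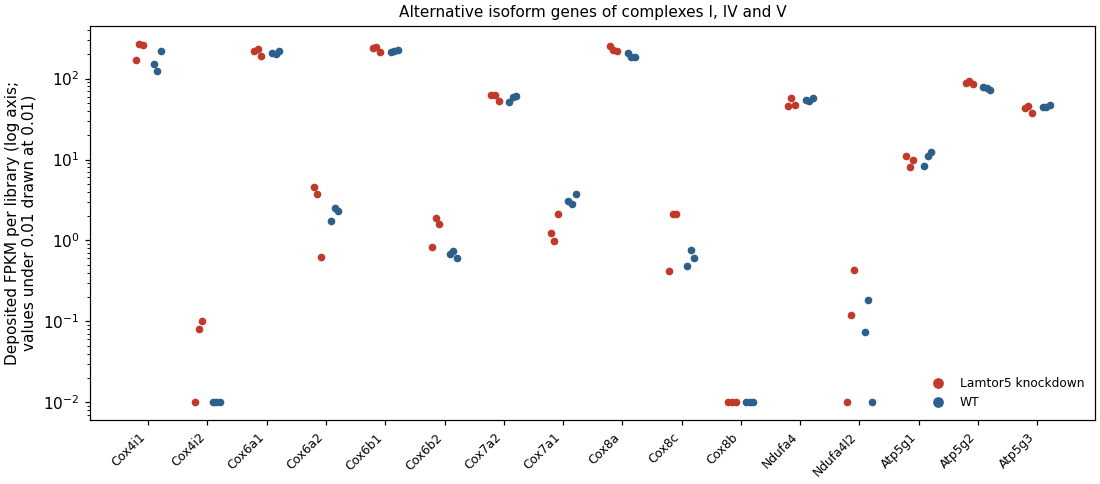
Deposited FPKM per library (log axis) of subunit genes with alternative isoforms, knockdown in red left of WT in blue; values under 0.01 are drawn at 0.01. The general isoforms of complex IV lie above 50 FPKM, whereas Cox7a1 lies at 0.996 to 2.11 FPKM in the knockdown and 2.79 to 3.73 FPKM in WT.

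Complex V, the ATP synthase, had 1 of 17 genes higher in edgeR, none in DESeq2, and a median of -0.02. Atp5g2, 1 of 3 genes for the c subunit that forms the membrane ring (chr15:102662864-102672352, minus strand), was at 87.3, 92.7 and 85.7 FPKM in the knockdown and at 77.8, 75.7 and 72.3 FPKM in WT. The groups did not overlap (0.28, SE 0.070, adjusted p = 0.0479). Of the FPKM of Atp5g1 to Atp5g3 together, Atp5g2 made up 61.5, 63.0 and 64.2% in the knockdown and 59.2, 57.8 and 54.8% in WT. The other c subunit genes overlapped between the groups: Atp5g1 had a log2 fold change of -0.07 (SE 0.180) and Atp5g3 of -0.05 (SE 0.087). The 5 genes of the catalytic F1 head had a median of 0.05, with 0 past the threshold by edgeR and by DESeq2 and 0 at an unadjusted p under 0.05. Atp5a1, the alpha subunit, was at 162, 167 and 165 FPKM in the knockdown and at 173, 170 and 184 FPKM in WT (-0.04, 95% interval -0.21 to 0.12). Atp5b, the catalytic beta subunit, was at 109, 105 and 97.5 FPKM in the knockdown and at 113, 119 and 144 FPKM in WT (-0.22, interval -0.48 to 0.03). The knockdown values of both lay below all WT values, and neither passed. Of the small subunits of the membrane part, Atp5mpl was at 34.9, 38.0 and 44.7 FPKM in the knockdown and at 33.6, 30.5 and 29.8 FPKM in WT, without overlap but short of the threshold (0.37, SE 0.121, adjusted p = 0.0939). Atp5md was at 10.5, 13.7 and 11.1 FPKM in the knockdown and at 9.85, 10.4 and 10.8 FPKM in WT, with overlap (0.23, SE 0.107). The remaining genes of complex V lay between -0.22 for the stalk subunit Atp5pb and 0.11 for Atp5h, and none passed in edgeR.

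Promoters of respiratory chain genes are known to carry sites for NRF1, for ETS factors such as GABPA and for YY1, so these letters were searched on both strands in RefSeq promoter windows (GRCm38.p6; 250 bases before to 50 after each start), which 67 of the 84 members had in 72 windows. The palindromic NRF1 motif was in 6.94% of member windows and in 0.971% of all 32851 windows, the ETS motif CCGGAAG in 23.6% and 8.86%, and the YY1 motif AAGATGGC in 13.9% and 2.75%. At least 1 of these 3 was in 29 of the 67 genes (40.3% of member windows, 11.9% of all). The E-box CACGTG, bound by MiT/TFE factors, was in 9.72% of member windows and 7.15% of all. Matches are a description of sequence, not of binding; the median GC content was 58% in member windows and 52.7% in all. Of the 6 genes that rose, Atp5g2 held the NRF1 motif and Uqcrh the ETS motif, and the other 4 held none of the 4 motifs. The 250 bases before the RefSeq start are shown for these 2 genes and, as the gene with the smallest adjusted p and no match, Ndufa1; each reads 5′ to 3′ on the gene's strand (minus for all 3), with motif matches in capitals. The Atp5g2 match starts 42 bases before the start, in chr15:102671048-102671297; the Uqcrh match, read on the reverse strand, starts 10 bases before it, in chr4:116075071-116075320; the Ndufa1 window is chrX:37191239-37191488.
Atp5g2: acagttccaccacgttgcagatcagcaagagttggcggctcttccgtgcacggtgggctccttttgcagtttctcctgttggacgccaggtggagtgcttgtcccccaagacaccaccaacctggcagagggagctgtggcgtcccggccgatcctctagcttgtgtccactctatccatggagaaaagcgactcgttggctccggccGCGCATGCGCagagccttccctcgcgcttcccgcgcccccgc
Uqcrh: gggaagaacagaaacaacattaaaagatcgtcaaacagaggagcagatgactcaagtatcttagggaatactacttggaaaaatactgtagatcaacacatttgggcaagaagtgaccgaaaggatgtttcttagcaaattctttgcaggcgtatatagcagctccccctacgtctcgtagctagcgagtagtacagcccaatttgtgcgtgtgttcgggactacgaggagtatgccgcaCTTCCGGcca
Ndufa1: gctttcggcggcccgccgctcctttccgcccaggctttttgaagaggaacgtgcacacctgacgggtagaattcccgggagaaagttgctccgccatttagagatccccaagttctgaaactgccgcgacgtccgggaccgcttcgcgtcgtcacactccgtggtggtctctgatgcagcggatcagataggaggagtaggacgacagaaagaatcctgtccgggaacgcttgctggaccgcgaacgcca

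The genes of the factors that bind such sites did not pass. Of 13 regulators of respiratory genes 0 passed in edgeR, DESeq2 and limma, with a median of -0.10 and 10 of 13 below 0. An unadjusted p under 0.05 in edgeR was found for 0 of 13, beside 36.7% of all tested genes with at least 1 FPKM. Gabpa, the DNA-binding subunit of GABP, was at 6.24, 7.42 and 7.89 FPKM in the knockdown and at 7.96, 9.10 and 9.25 FPKM in WT (-0.24, SE 0.108, adjusted p = 0.190). The groups did not overlap, and Gabpa shares 701 bases with Atp5j on the opposite strand. Myc, a growth-related activator, was at 2.97, 2.69 and 2.62 FPKM in the knockdown and at 2.73, 3.81 and 6.69 FPKM in WT (-0.62, SE 0.309, adjusted p = 0.231), with overlap. Ppargc1a, the gene of the coactivator PGC-1α, named here after its values were seen, averaged 0.0323 FPKM over all libraries. It was at 0.0515, 0.0377 and 0.0681 FPKM in the knockdown and at 0.018, 0.0183 and 0.0001 FPKM in WT. Its groups did not overlap at these very low levels (2.08, SE 1.04, adjusted p = 0.231 in edgeR).

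Of 11 lists of mitochondrial genes around the respiratory chain, 144 genes were tested, and in edgeR 4 rose and 1 fell (3.47%, beside 11.3% of all tested genes). DESeq2 called 12 higher and 3 lower (10.4%, beside 7.81% higher and 9.73% lower over all genes it tested). With limma on log2(FPKM + 1) 5 were higher and 1 lower (4.17%, background 6.45% higher and 10.7% lower). In edgeR the calls were 0 without WT replicate 2, 8 higher and 3 lower without WT replicate 1, and 1 to 3 higher and 0 lower without each of the other libraries. Assembly factors did not pass in edgeR: for complex I 0 of 16 genes (median 0.05), for II 0 of 4 (0.36) and for III 0 of 6 (0.11). For IV it was 0 of 22 (0.15) and for V 0 of 4 (-0.05). At an unadjusted p under 0.05 there were 7 higher and 2 lower, beside 36.7% of all tested genes with at least 1 FPKM. DESeq2 called Ndufaf4, Sdhaf4 and Uqcc3 higher, and limma called Sdhaf4. Sdhaf4, which helps to load the flavoprotein Sdha into complex II, was at 12.2, 13.3 and 14.1 FPKM in the knockdown and at 10.6, 9.66 and 9.28 FPKM in WT. Its groups did not overlap (0.47, SE 0.127, adjusted p = 0.0583). Uqcc3, a complex III assembly factor, was at 30.4, 34.2 and 31.7 FPKM in the knockdown and at 28.1, 22.3 and 21.9 FPKM in WT, again without overlap (0.46, SE 0.132, adjusted p = 0.0703). Ndufaf4, a complex I assembly factor, was at 3.85, 1.33 and 4.08 FPKM in the knockdown and at 1.35, 1.07 and 1.22 FPKM in WT, and knockdown replicate 2 lay within the WT range (1.41, SE 0.420, adjusted p = 0.0763). The others of smallest p were Acad9 (-0.29), which also serves complex I assembly, Sdhaf1 (0.44), Uqcc1 (0.22), Coa4 (0.38), the heme A synthesis gene Cox10 (-0.31), the F1 assembly gene Atpaf1 (0.48) and Fmc1 (-0.38), with adjusted p from 0.094 to 0.390 in edgeR.

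The 13 subunits encoded by mitochondrial DNA were all above 0 in edgeR, with a median log2 fold change of 0.26. Without knockdown replicate 1, WT replicate 1 or WT replicate 2, 12 of 13 were above 0. In edgeR with all libraries 0 passed. An unadjusted p under 0.05 was found for 6 of 13, beside 36.7% of all tested genes with at least 1 FPKM. DESeq2 called 3, mt-Co1, mt-Co2 and mt-Nd6, and limma 0, with 12 of 13 above 0. Mitochondrial genes held 2.80, 2.75 and 3.04% of the estimated counts in the knockdown and 2.45, 2.26 and 2.45% in WT, and these shares did not overlap. mt-Co2, a copper-binding catalytic subunit of complex IV, was at 3805, 3568 and 3791 FPKM in the knockdown and at 2758, 2786 and 3352 FPKM in WT (0.38, SE 0.110, adjusted p = 0.0709). The groups did not overlap. mt-Nd6, a membrane-arm subunit of complex I, was at 887, 941 and 1116 FPKM in the knockdown and at 821, 707 and 728 FPKM in WT, also without overlap (0.43, SE 0.121, adjusted p = 0.0648).

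Genes of mitochondrial import and protein folding held 3 of the 5 list genes that passed in edgeR. These were 3 of 19 tested (15.8%, median 0.12), beside 15.0% of all tested genes with at least 1 FPKM. Hspe1, the co-chaperonin of the mitochondrial matrix, was at 61.5, 61.6 and 66.3 FPKM in the knockdown and at 39.2, 38.6 and 39.0 FPKM in WT (0.75, SE 0.076, adjusted p = 0.00963). Its partner chaperonin Hspd1 was at 66.6, 62.7 and 66.6 FPKM in the knockdown and at 40.5, 48.3 and 54.3 FPKM in WT (0.50, SE 0.111, adjusted p = 0.0348). In both, all knockdown libraries were above all WT libraries. Tomm20, an outer membrane import receptor, was at 32.5, 32.8 and 37.9 FPKM in the knockdown and at 25.0, 22.9 and 22.2 FPKM in WT (0.60, SE 0.102, adjusted p = 0.0183). DESeq2 also called Timm50, a subunit of the inner membrane import machinery, lower (-0.46, adjusted p = 0.0337). It was at 8.87, 9.33 and 7.83 FPKM in the knockdown and at 9.95, 13.0 and 13.9 FPKM in WT, without overlap (-0.45, SE 0.135, adjusted p = 0.0772 in edgeR). Of 11 genes of mitochondrial dynamics and mitophagy (median 0.17), the mitophagy receptor Bnip3l rose, with 32.9, 35.8 and 43.0 FPKM in the knockdown and 26.5, 24.2 and 20.3 FPKM in WT (0.70, SE 0.145, adjusted p = 0.0291). The groups did not overlap for Tomm20 or Bnip3l. DESeq2 also called Pink1, the kinase that starts mitophagy at damaged mitochondria, higher (0.75, adjusted p = 0.0114). It was at 27.0, 26.2 and 32.5 FPKM in the knockdown and at 21.8, 18.0 and 12.3 FPKM in WT, without overlap (0.77, SE 0.220, adjusted p = 0.0701 in edgeR). Of 17 genes of the TCA cycle and pyruvate dehydrogenase (median 0.03), the fumarase gene Fh1 fell, at 11.7, 11.8 and 10.5 FPKM in the knockdown and 14.4, 15.4 and 16.5 FPKM in WT, without overlap (-0.39, SE 0.084, adjusted p = 0.0321). Of these 5 genes, Hspe1 alone passed with a replicate block (adjusted p = 0.0397 in edgeR). None passed without WT replicate 2, where 0 of 18979 genes passed over the whole table. Bnip3l and Fh1 passed without WT replicate 1 and in no other fit with a library left out. With no filter on low counts Hspe1 and Tomm20 passed (adjusted p = 0.0194 and 0.0336 in edgeR). Bnip3l, Fh1 and Hspd1 missed the threshold in that setting (adjusted p = 0.0518, 0.0527 and 0.0604 in edgeR). With single libraries left out, the adjusted p in edgeR was 0.0269 to 0.113 for Bnip3l (log2 fold change 0.58 to 0.80) and 0.0353 to 0.115 for Fh1 (-0.43 to -0.35). Hspd1 passed without WT replicate 1 or 3, and Tomm20 without knockdown replicate 2 or 3 or WT replicate 1. Of 19 genes of electron carriers and coenzyme Q synthesis 0 passed in edgeR (median -0.02). At an unadjusted p under 0.05 there were 2 higher and 1 lower, beside 36.7% of all tested genes with at least 1 FPKM. DESeq2 called Coq8a higher and Pdss1 lower, and limma called 0. Gpd2, which feeds electrons from glycerol phosphate into the chain, had a log2 fold change of 0.35 (SE 0.103, adjusted p = 0.0729), and Pdss1, which makes the coenzyme Q side chain, one of -0.94 (SE 0.289, adjusted p = 0.0818).

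**Figure D5:**
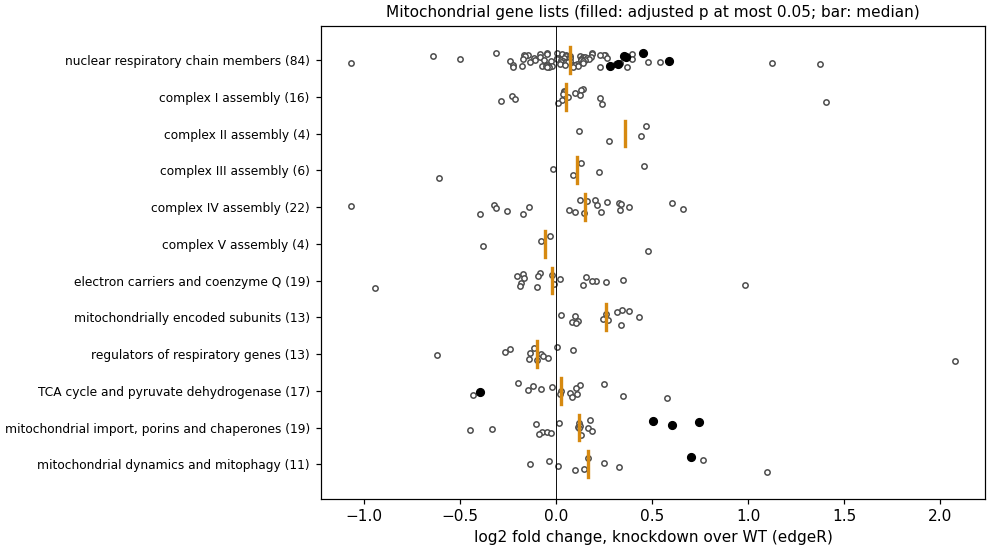
log2 fold change (knockdown over WT, edgeR) of each tested gene in the respiratory chain and 11 related mitochondrial lists; filled points have an adjusted p of at most 0.05 and orange bars are medians. The medians run from -0.10 for regulators to 0.36 for complex II assembly, and by edgeR 4 genes rose and 1 fell outside the respiratory chain itself.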

How the data were processed

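RNA sequencing libraries were made from total RNA with a SMARTER mRNA-Seq kit, per the labels' protocols. Adapters were removed with cutadapt 1.9 (overlap of at least 5 bases, reads of at least 100 bases kept), per the file headers of the logs. The submitters' processing notes name the build GRCm38 (mm10); the sources used here do not give the aligner, the counter, the annotation or the use of strand. The authors deposited a table with an estimated count and an FPKM per gene and library, per the file headers. The estimated counts made by the authors are whole numbers but no tally of reads: they sum to 2.95 to 3.01 per read pair, and among low values (1 to 30, single-transcript genes) 15.9% are 4 and 3.23% are 5. They needed no rounding and give no binomial interval. The FPKM is the authors' own and stands at 0.0001 where the count is 0.

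Tests used edgeR 4.0.16 (R 4.3.3): filterByExpr (minimum count 10), TMM, group as the only term, all 6 libraries, Benjamini-Hochberg adjustment over 18164 genes, threshold 0.05. The SE is the size of the log2 fold change divided by the square root of F, and 95% intervals use the t distribution. The fit was checked on simulated counts. These did not copy the uneven low values of the estimated counts, so the check does not cover that feature. The members and lists were chosen with earlier results of these data known. Named are all members past the threshold, the 3 with the largest change and the 3 with the highest level per complex, isoform pairs, the Sdh genes, list genes that passed (otherwise the 2 of smallest p), and members next to 1 FPKM; 1 complex I gene that the rule names is not reported here. Ppargc1a and genes named only for a call in another setting or an overlap were added later. The settings also tried were DESeq2 1.42.0, RLE size factors, all genes without a count filter, limma 3.58.1 on log2(FPKM + 1) and log2(FPKM + 0.1), a mean of at least 5 FPKM, a replicate block, and leaving out each library in turn. Leaving out the 3 processed pseudogenes was added after seeing the data. Many members overlap a gene on the other strand or have pseudogene copies, and reads that fit both cannot be told apart here.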

Additional observations from a re-analysis of the deposited data

How the results depend on the processing

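Of the counts of 6 higher and 0 lower members, the higher count was 6 with DESeq2, 4 with RLE size factors, 1 without a filter on low counts, 3 with limma on log2(FPKM + 1) and 3 with limma on log2(FPKM + 0.1). It ranged from 0 to 5 when single libraries were left out: it was 5 without WT replicate 1 and 0 without each of the other 5, where 13 to 20 members had an unadjusted p under 0.05 in edgeR. The lower count was 2 with DESeq2, 3 with both limma fits and 0 in the other settings. Over 12 settings Ndufa1 passed in 6, Uqcrh and Cox7c in 5, Ndufc2 in 2 and Ndufb5 and Atp5g2 in 1 each; all kept a log2 fold change above 0. The members' median of 0.07 was 0.02 with limma under both pseudocounts and 0.04 to 0.13 with single libraries left out, the highest without knockdown replicate 3. Over all tested genes the number called was 2072 with RLE, 3579 with DESeq2, 1205 without a filter, 1974 and 2006 with limma, and 377, 1130, 781, 2334, 0 and 625 without knockdown replicates 1 to 3 and WT replicates 1 to 3, so the members' counts share the dependence on single libraries. Lamtor5 was at -1.09 to -1.04 with single libraries left out, and its adjusted p missed the threshold without WT replicate 2 (-1.09). With at least 5 FPKM, and without the 3 processed pseudogenes, the counts stayed at 6 and 0. Of the complex medians, 54 of 72 values moved by less than the spread and 18 by more; of the values of named genes, 606 stayed on their side of the threshold, 77 fell short of it and 19 came past it, none with a called change of sign. The cause of these changes was not tested.

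The replicate numbers share only a number: deviations of same-numbered libraries correlated at 0.05, 0.04 and -0.01 over genes. With the number as a replicate block 0 members passed in either direction (18 at an unadjusted p under 0.05) and 728 genes did over the whole table. With 3 libraries a group, 15 of 84 members have 95% intervals that reach past a 1.5-fold change; 2 of them, Uqcrh and Ndufa1, passed the test, and for the other 13 a change of that size lies within the interval.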

Other observations

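The 14 genes left out for "-ps" names hold some levels as high as those of members. Ndufa12-ps, annotated as a processed pseudogene, was at 50.2, 44.9 and 46.5 FPKM in the knockdown and at 24.2, 45.2 and 52.9 FPKM in WT, while Ndufa12, an accessory subunit of complex I, was at 9.64, 12.2 and 10.1 FPKM in the knockdown and at 12.6, 10.7 and 10.8 FPKM in WT. Ndufb1-ps, listed as protein coding, was at 32.2, 28.6 and 25.7 FPKM in the knockdown and at 27.9, 24.6 and 23.6 FPKM in WT. Cox5b-ps, also listed as protein coding, was at 19.9, 20.8 and 18.1 FPKM in the knockdown and at 21.2, 20.9 and 24.6 FPKM in WT. Atp5l2-ps was at 9.89, 9.87 and 9.26 FPKM in the knockdown and at 8.05, 8.50 and 7.08 FPKM in WT. Of these, the groups did not overlap for Cox5b-ps and Atp5l2-ps. Of the 14, Uqcrh-ps1, Uqcrh-ps2, Atp5l-ps2 and Atp5c1-ps were not tested, and none of the others passed. These genes were picked after their values were seen.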
